A study of Mus musculus with 2 samples.

Results

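The Fc gamma receptors of liver macrophages, their shared signalling chain and the kinase it recruits were followed in 6 genes, Fcgr1, Fcgr3, Fcgr4, Fcgr2b, Fcer1g and Syk. They were taken by symbol from the 26078 genes measured, and all 6 were found once in both libraries. Single-cell RNA libraries came from the livers of 2 C57BL/6J mice aged 7 to 10 weeks. The Ter119 mouse received a subcutaneous dose of 35 ug of Ter119, an antibody that coats red cells, and then 10 daily doses of 10 ug. The other mouse received the same volume of saline and no antibody. The interval between the final injection and collection is labelled 24 with no unit. Beads carrying antibodies to F4/80 and CD11b enriched macrophages from the non-parenchymal fraction, and hashtag-stained cells of both mice were pooled. The title of the series concerns erythrophagocytosis by Kupffer cells, the macrophages that reside in liver sinusoids, and these genes act where an antibody-coated red cell is bound.

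Immunoglobulin G on a particle is bound by Fc gamma receptors. In mice the activating receptors are encoded by Fcgr1 (high affinity), Fcgr3 and Fcgr4, and each pairs with the common gamma chain, encoded by Fcer1g, whose activation motif (ITAM) is phosphorylated by Src family kinases and then bound by the kinase Syk, which starts engulfment. Fcgr2b encodes the inhibitory receptor, which carries an inhibitory motif (ITIM) of its own, recruits the lipid phosphatase encoded by Inpp5d and needs no gamma chain. Kupffer cells are known for clearing antibody-coated red cells, whereas the sinusoidal endothelium of the liver is known for a high level of the inhibitory receptor.

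4 of the genes lie on chromosome 1 (GRCm38, GENCODE M21), with Fcgr2b at 170958617 to 170976547, Fcgr4 at 171018920 to 171029761, Fcgr3 at 171051174 to 171064935 and Fcer1g at 171229572 to 171234365. Fcgr1 lies on chromosome 3 at 96282909 to 96293969 and Syk on chromosome 13 at 52583173 to 52648792. Fcgr2b overlaps Gm38204 on the opposite strand, and the sources used here do not say whether counting used strand. Fcgr2b and Fcgr3 are close paralogues, and reads that could belong to either were not examined. Fcgr3 and Fcgr4 hold Mir6546 and Gm26110 on their own strand.

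Promoter windows are printed for the 3 activating receptors, whose levels moved together over cell classes, and for Fcgr2b, whose level did not. Fcer1g moved with the 3 receptors as well (Pearson r of 0.84 with Fcgr3, 0.78 with Fcgr4 and 0.69 with Fcgr1), and its window is not printed. The 6 genes matched the RefSeq promoter table (GRCm38.p6, 250 bases before to 50 bases after each start), and the windows are shown 5′ to 3′ on the strand of the gene. They lie at chr3:96293920-96294219 (Fcgr1, minus strand), chr1:171059354-171059653 (Fcgr3, minus strand), chr1:171018676-171018975 (Fcgr4, plus strand) and chr1:170976022-170976321 (Fcgr2b, minus strand). Capitals mark GAGGAAG, a core sequence bound by the macrophage transcription factor PU.1, which was searched on both strands and here reads CTTCCTC.
Fcgr1: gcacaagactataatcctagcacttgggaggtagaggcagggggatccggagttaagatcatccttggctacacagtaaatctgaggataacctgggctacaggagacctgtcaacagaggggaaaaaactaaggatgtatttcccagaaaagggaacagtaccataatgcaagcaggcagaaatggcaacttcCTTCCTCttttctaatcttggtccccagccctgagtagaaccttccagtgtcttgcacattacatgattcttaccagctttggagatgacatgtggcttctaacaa
Fcgr3: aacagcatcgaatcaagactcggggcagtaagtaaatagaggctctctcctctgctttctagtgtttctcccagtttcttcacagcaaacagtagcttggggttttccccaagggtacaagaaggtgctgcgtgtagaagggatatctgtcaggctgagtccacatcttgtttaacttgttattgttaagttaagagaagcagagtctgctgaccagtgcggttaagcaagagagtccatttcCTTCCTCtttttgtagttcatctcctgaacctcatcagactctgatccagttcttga
Fcgr4: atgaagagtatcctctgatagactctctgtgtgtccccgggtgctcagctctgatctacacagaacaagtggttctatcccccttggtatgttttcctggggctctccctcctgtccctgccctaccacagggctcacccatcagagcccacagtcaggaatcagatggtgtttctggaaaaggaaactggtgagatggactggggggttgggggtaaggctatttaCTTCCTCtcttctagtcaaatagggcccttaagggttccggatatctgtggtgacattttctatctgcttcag
Fcgr2b: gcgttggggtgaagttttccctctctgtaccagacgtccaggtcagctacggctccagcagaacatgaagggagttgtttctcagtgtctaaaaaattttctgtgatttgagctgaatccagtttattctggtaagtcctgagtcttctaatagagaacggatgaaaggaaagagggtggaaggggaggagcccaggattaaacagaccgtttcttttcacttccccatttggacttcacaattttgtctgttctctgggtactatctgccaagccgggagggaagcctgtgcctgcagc

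The 3 activating receptor windows each held GAGGAAG on the opposite strand, with its first base at -56 in Fcgr1, at -7 in Fcgr3 and at -23 in Fcgr4, counted from the start site. RefSeq gives a second window for Fcgr3, which overlaps the first and holds the same match. The windows of Fcgr2b, Fcer1g and Syk did not hold these letters, although Fcer1g moved with the activating receptors over cell classes. Of 32544 mouse promoter windows of the same length, 13.4% held GAGGAAG, and the motif was chosen after the sequences had been read. The interferon-gamma element TTCNNNGAA was found in the Fcgr1 window, at -109, and in 8.33% of all windows. The antioxidant element TGACNNNGC (12.4% of all windows) and the E-box CACGTG (7.17%) were found in no window of these genes.

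The Ter119 library held 25760 barcodes and 61892074 UMIs (unique molecular identifiers, 1 per transcript molecule), and the saline library held 18354 barcodes and 97181787 UMIs. After filtering, 13846 Ter119 cells with a median of 2803 UMIs and 11572 saline cells with a median of 6239 UMIs remained. Each group is a single mouse, so no spread between animals is known, no test of the treatment was possible, and every interval given is a 95% interval for counting error only. Levels are in CPM: the UMIs of a gene were summed over the cells of a class and scaled to a total of 1000000 UMIs, without division by gene length, since the chemistry counts 3′ ends. Cells were put into classes by fixed markers, none of which is a gene of this set. The Kupffer gate took 7930 Ter119 cells, 57.3% of those kept, and 8902 saline cells, 76.9%, and 3312 Ter119 cells (23.9%) and 1463 saline cells (12.6%) fell in no class. Kupffer-gated cells carried a median of 8 of 10 Kupffer markers in Ter119 and 10 of 10 in saline. Endothelial-gated cells carried a median of 7 of 9 endothelial markers in Ter119 and 8 of 9 in saline, and classical monocyte-gated cells 5 of 8 and 6 of 8 of theirs. The monocyte, dendritic, neutrophil and endothelial classes also carried a median of 5 to 7 Kupffer markers, at a summed level of at most 6125 CPM, against 22398 CPM in Kupffer-gated cells in Ter119 and 36602 CPM in saline. Hemoglobin transcripts made up 8.54% of the UMIs of Kupffer-gated cells in Ter119 and 0.0133% in saline. 133 barcode sequences occurred in both libraries, 38 of them among the cells kept.

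Kupffer-gated cells held most of the activating receptor RNA in both mice. They supplied 94.3% of the Fcgr1 UMIs of gated cells in Ter119 and 98.2% in saline. For Fcgr3 their share was 93.0% and 96.9%, and for Fcgr4 it was 95.4% and 97.9%, in Ter119 and saline. Fcgr2b was distributed the other way: endothelial-gated cells held 75.0% of its gated UMIs in Ter119 and 79.1% in saline, and Kupffer-gated cells 18.7% and 14.3%. The Kupffer class was also the largest, with 29607428 UMIs in Ter119 and 62164392 in saline, against 1958697 and 2256000 in the endothelial class. Its share of a gene thus rests on class size as well as level. Of Fcer1g it held 90.1% and 93.7%, in Ter119 and saline, and of Syk 89.8% and 93.6%. Most activating receptor UMIs of these preparations lay in the Kupffer class, and most Fcgr2b UMIs in the endothelial class. Levels, which are scaled to the UMIs of each class, follow.

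**Figure D1:**
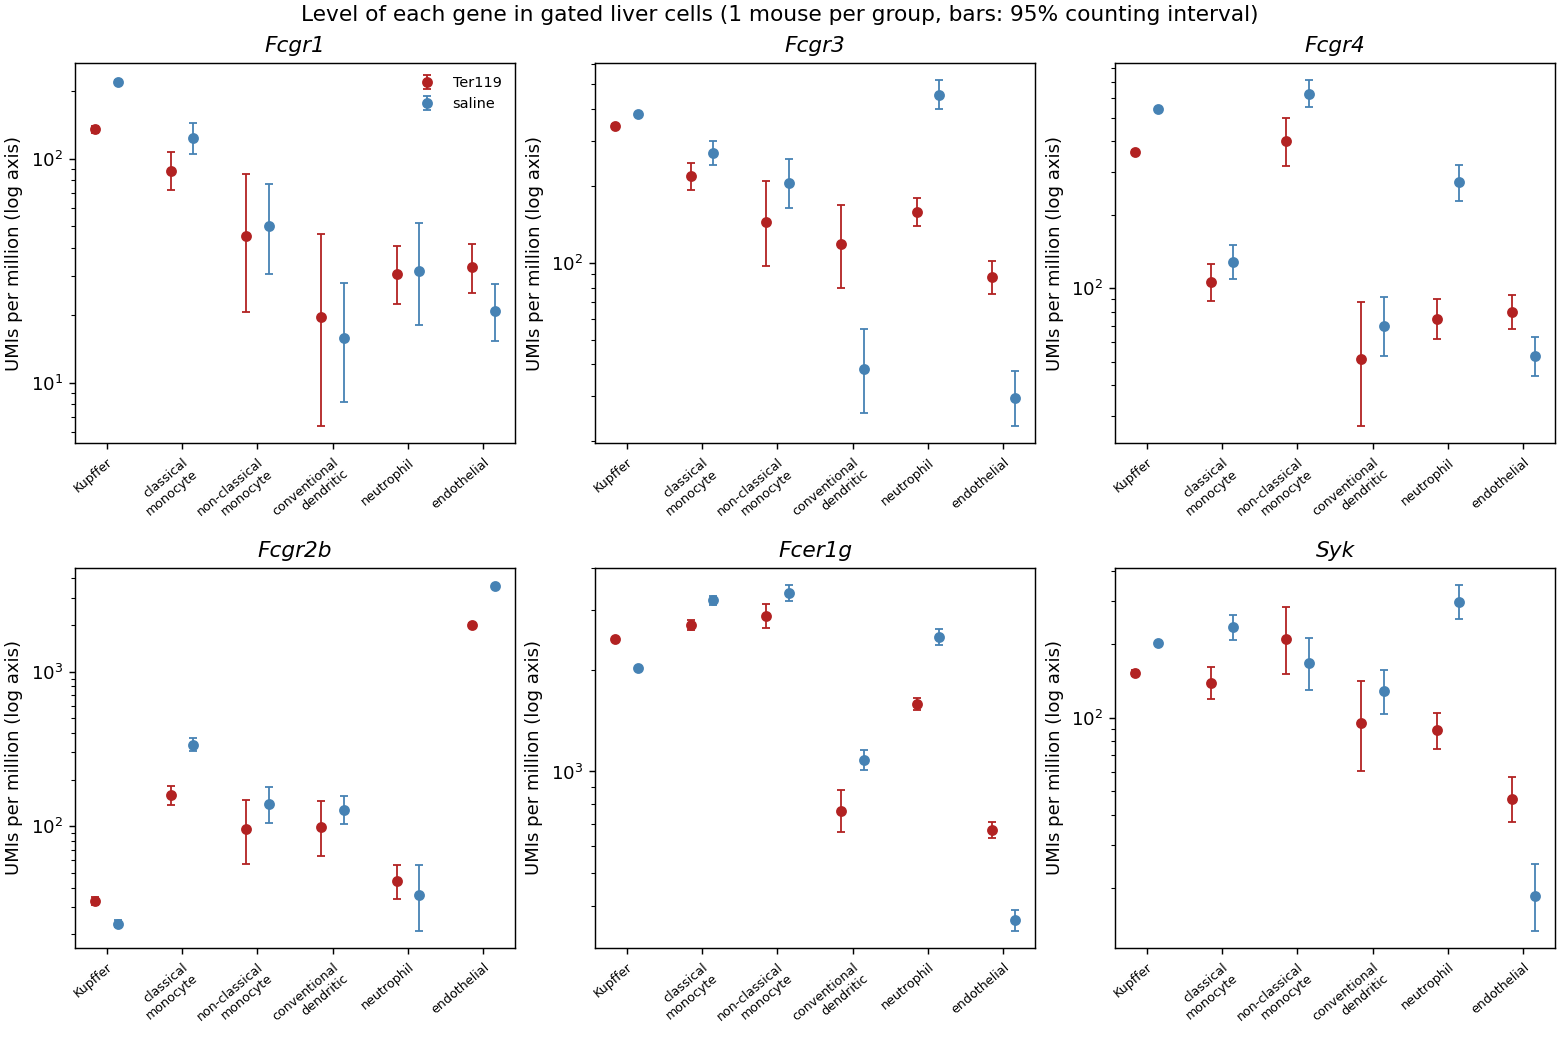
Level of each of the 6 genes (CPM, log axis) in 6 gated cell classes, with Ter119 in red on the left and saline in blue on the right of each pair; points are summed counts of 1 mouse, and bars are 95% counting intervals. Fcgr2b stands at 1996 CPM in Ter119 and 3554 CPM in saline in endothelial-gated cells, far above its level in the other classes.

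Fcgr1, the high-affinity receptor, was highest in Kupffer-gated cells in both libraries, at 136 CPM in Ter119 (131 to 139.9) and 220.2 CPM in saline (217 to 224). Classical monocyte-gated cells followed with 88.5 CPM in Ter119 and 124 CPM in saline. In non-classical monocyte-gated cells it stood at 45.0 and 50.2 CPM, in neutrophil-gated cells at 30.5 and 31.6 CPM, and in conventional dendritic-gated cells at 19.7 and 15.9 CPM, in Ter119 and saline. Below the classical monocytes, the intervals of neighbours in that order overlapped in each library. Endothelial-gated cells had 32.7 CPM in Ter119 and 20.8 CPM in saline.

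Fcgr3, the low-affinity activating receptor, was spread more widely. It stood at 343 CPM in Ter119 and 380.2 CPM in saline in Kupffer-gated cells, and at 218 and 269 CPM in classical monocyte-gated cells. Neutrophil-gated cells had the highest level in saline, 455 CPM (230 UMIs in 223 cells), against 158 CPM in Ter119 (238 UMIs in 618 cells). Non-classical monocyte-gated cells had 145 CPM in Ter119 and 206 CPM in saline, and conventional dendritic-gated cells 118 and 38.5 CPM.

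Fcgr4, which binds the mouse IgG2 subclasses, was highest in non-classical monocyte-gated cells, at 400.4 CPM in Ter119 (317 to 498) and 627 CPM in saline (552 to 709.8). Kupffer-gated cells followed at 361 CPM (354 to 368) in Ter119 and 541 CPM (535 to 547) in saline, so that the order of these 2 classes was resolved beyond counting error in saline and not in Ter119. Neutrophil-gated cells had 75.0 CPM in Ter119 and 271 CPM in saline. The receptor made up 67.8% of the activating receptor UMIs of non-classical monocyte-gated cells in Ter119 and 71.0% in saline, against 25.7% and 24.6% in classical monocyte-gated cells. The makeup of the activating set thus differed between the monocyte classes in both mice. In Kupffer-gated cells Fcgr4 made up 43.0% of the activating UMIs in Ter119 and 47.4% in saline, Fcgr3 40.9% and 33.3%, and Fcgr1 16.2% and 19.3%.

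Fcgr2b, the inhibitory receptor, stood at 1996 CPM in Ter119 and 3554 CPM in saline in endothelial-gated cells. Classical monocyte-gated cells came next among the classes of over 50 cells, with 159 CPM in Ter119 (137 to 183) and 337 CPM in saline (305 to 371). B-gated cells in saline had 223 CPM (78 UMIs in 64 cells), and 45 B-gated cells in Ter119 had 6 Fcgr2b UMIs. Non-classical monocyte-gated cells had 95.1 CPM in Ter119 and 138 CPM in saline, and conventional dendritic-gated cells 98.7 and 127 CPM. Neutrophil-gated cells had 43.8 CPM in Ter119 (33.9 to 55.8) and 35.6 CPM in saline (21.1 to 56.2), and Kupffer-gated cells 32.8 CPM (30.8 to 35.0) and 23.3 CPM (22.1 to 24.5). The order of these last classes was not resolved, since their intervals overlapped in both libraries.

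Both ends of this pattern were set against a gene of the other class. Per 100 UMIs of the endothelial gene Kdr, Kupffer-gated cells held 107 Fcgr2b UMIs in Ter119 and 119 in saline, and endothelial-gated cells held 105 and 111. The T-gated cells of Ter119, a class that is not known for Fcgr2b, had 58.4 CPM (25.2 to 115, on 8 UMIs in 67 cells), an interval that holds the Kupffer-gated level. Fcgr2b thus stood in a ratio to Kdr in Kupffer-gated cells close to that in endothelial-gated cells. Summed over the 9 endothelial markers, with all 9 detected in both, Kupffer-gated cells had 282 CPM in Ter119 and 887 CPM in saline, the opposite order to Fcgr2b. Only 2 of the 9 markers reached 50 CPM in each library, so the sum rests on few genes. Kdr itself stood at 30.8 CPM in Ter119 and 19.5 CPM in saline in these cells, the same order as Fcgr2b. The part of endothelial RNA in the Fcgr2b counts of Kupffer-gated cells was not tested. Per 100 Kdr UMIs, classical monocyte-gated cells held 738 Fcgr2b UMIs in Ter119 and 3800 in saline, on 26 and 11 Kdr UMIs, so their level stood above that ratio.

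The reverse held for the activating receptors in endothelial-gated cells. Per 100 UMIs of the Kupffer gene Cd5l, endothelial-gated cells held 7.85 Fcgr4 UMIs in Ter119 and 8.08 in saline, against 6.89 and 7.27 in Kupffer-gated cells. For Fcgr1 the values were 3.20 and 3.19 in endothelial-gated cells and 2.59 and 2.96 in Kupffer-gated cells, in Ter119 and saline. T-gated cells of Ter119 held 7.87 Fcgr4 UMIs and 3.15 Fcgr1 UMIs per 100 Cd5l UMIs. For Fcgr3 they were 8.60 and 4.55 in endothelial-gated cells and 6.56 and 5.11 in Kupffer-gated cells, in Ter119 and saline. Fcgr4 and Fcgr1 in endothelial-gated cells were thus near the ratio seen in Kupffer-gated cells in both libraries, and Fcgr3 stood above it in Ter119 and below it in saline. Fcgr4 in non-classical monocyte-gated cells stood well above it, with 42.6 per 100 Cd5l UMIs in Ter119 and 87.4 in saline.

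**Figure D2:**
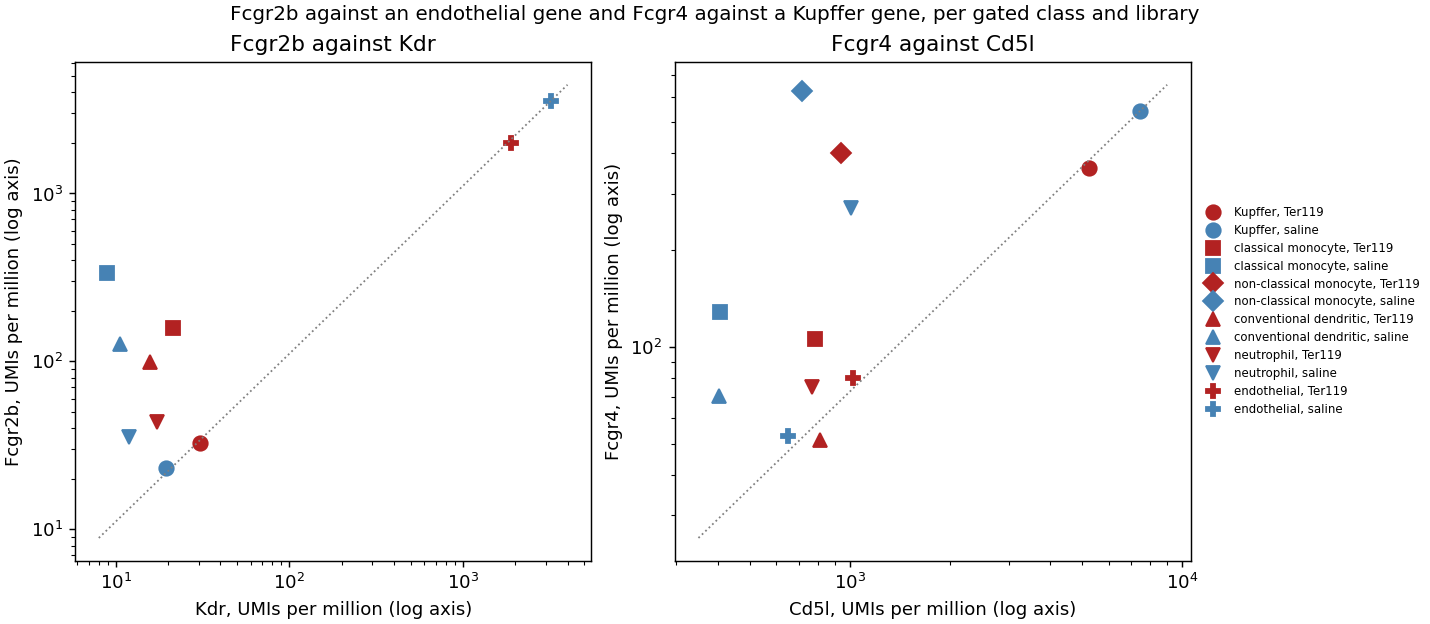
Left, Fcgr2b against the endothelial gene Kdr, and right, Fcgr4 against the Kupffer gene Cd5l, in CPM on log axes, per gated class and library (Ter119 red, saline blue); the dotted lines keep the ratio of saline endothelial-gated cells on the left and of saline Kupffer-gated cells on the right, and non-classical monocyte-gated cells are missing on the left because they held under 4 Kdr UMIs. Kupffer-gated cells lie on the endothelial line at 107 and 119 Fcgr2b UMIs per 100 Kdr UMIs in Ter119 and saline, and monocyte-gated and dendritic-gated cells lie above it.

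Fcer1g, the gamma chain that activating receptors need to reach the surface, had more UMIs than the other 5 genes in each of the 6 classes compared except the endothelial one. It stood at 2461 CPM in Ter119 (2444 to 2479) and 2031 CPM in saline (2020.2 to 2043) in Kupffer-gated cells. It stood at 2723 and 3219.7 CPM in classical monocyte-gated cells, at 2893 and 3384 CPM in non-classical monocyte-gated cells and at 1588 and 2505 CPM in neutrophil-gated cells, in Ter119 and saline. The monocyte classes were thus higher than the Kupffer class in both mice. For each activating receptor UMI, Kupffer-gated cells held 2.93 Fcer1g UMIs in Ter119 and 1.78 in saline, against 6.60 and 6.17 in classical monocyte-gated cells. The 9 NK-gated cells of saline, a class in which the chain serves other receptors, had 3749 CPM.

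Syk had 152 CPM in Ter119 (148 to 157) and 202 CPM in saline (198 to 205) in Kupffer-gated cells. B cells, which use Syk downstream of the antigen receptor, had the highest level of the classes of over 50 cells in saline, 557 CPM (195 UMIs in 64 cells). Classical monocyte-gated cells had 139 CPM in Ter119 and 235 CPM in saline, non-classical monocyte-gated cells 210.2 and 168 CPM, neutrophil-gated cells 89.0 and 299 CPM, and conventional dendritic-gated cells 94.7 and 129 CPM. Syk therefore varied less among the myeloid classes than the receptors did. T-gated cells of Ter119, which mainly use a related kinase, had 21.9 CPM on 3 UMIs.

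Kupffer-gated cells of the Ter119 mouse had less Fcgr1 and Fcgr4 RNA, less Syk RNA and more Fcer1g RNA than those of the saline mouse, and none of the 6 genes differed by 2-fold. The Ter119 over saline ratio was 0.616 for Fcgr1 (0.594 to 0.638), 0.667 for Fcgr4 (0.653 to 0.682), 0.903 for Fcgr3 (0.882 to 0.924) and 0.756 for Syk (0.731 to 0.782). For Fcer1g it was 1.21 (1.20 to 1.22), and for Fcgr2b 1.41 (1.30 to 1.53). Of 6395 genes with at least 20 CPM in a library, 14.4% differed by 2-fold or more, 3.22% higher and 11.1% lower in Ter119, so that a set with no such gene does not stand out. The median of all these genes was a ratio of 0.801, and Fcgr3 lay above it and Fcgr1, Fcgr4 and Syk below it. With other scalings that move the median of all genes by over 0.1 on the log2 scale, Fcgr3 turned to 1.14 (TMM) and 1.16 (median-of-ratios), and the share of higher genes among those past 2-fold changed to 54.5% and 56.6%, against 22.4%. Fcer1g was higher in Ter119 in each of the 14 alternatives tried, with ratios of 1.05 to 1.56, and Fcgr1, Fcgr4 and Syk were lower in each, with highest ratios of 0.791, 0.857 and 0.971.

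Among genes ordered by their Ter119 over saline ratio in Kupffer-gated cells, 22.2% lay below Fcgr1, 29.1% below Fcgr4, 43.0% below Syk, 62.8% below Fcgr3 and 85.9% below Fcer1g. The chain thus ranked higher than every activating receptor that pairs with it. In cells thinned to 1000 UMIs, Fcgr1 was detected in 12.4% of Kupffer-gated cells in Ter119 and 19.0% in saline, and Fcgr4 in 29.4% and 40.1%. Without thinning the shares were 36.6% and 64.1% for Fcgr1 and 65.1% and 84.0% for Fcgr4, at median depths of 3554 UMIs in Ter119 and 6264 in saline. Fcgr3 was detected in 28.8% of thinned cells in Ter119 (27.8 to 29.8), and its interval in saline, 29.1% to 31.0%, overlapped with that. Fcer1g was detected in 88.8% of thinned cells in Ter119 and 82.5% in saline. Endothelial-gated cells, which should lack Fcgr4, gave thinned shares of 7.69% in Ter119 and 6.54% in saline, at median depths of 1464 and 3737 UMIs.

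Per thinned cell, 53.9% of Kupffer-gated cells in Ter119 and 63.1% in saline had a UMI of an activating receptor and none of Fcgr2b. Both kinds were seen in 1.87% and 2.25%, and Fcgr2b alone in 1.79% and 1.20%. In endothelial-gated cells Fcgr2b alone was seen in 68.3% in Ter119 and 82.9% in saline, the mirror of the Kupffer pattern. In classical monocyte-gated cells the share with Fcgr2b alone was 6.93% in Ter119 and 13.8% in saline, and the share with both kinds was 5.74% and 13.8%.

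**Figure D3:**
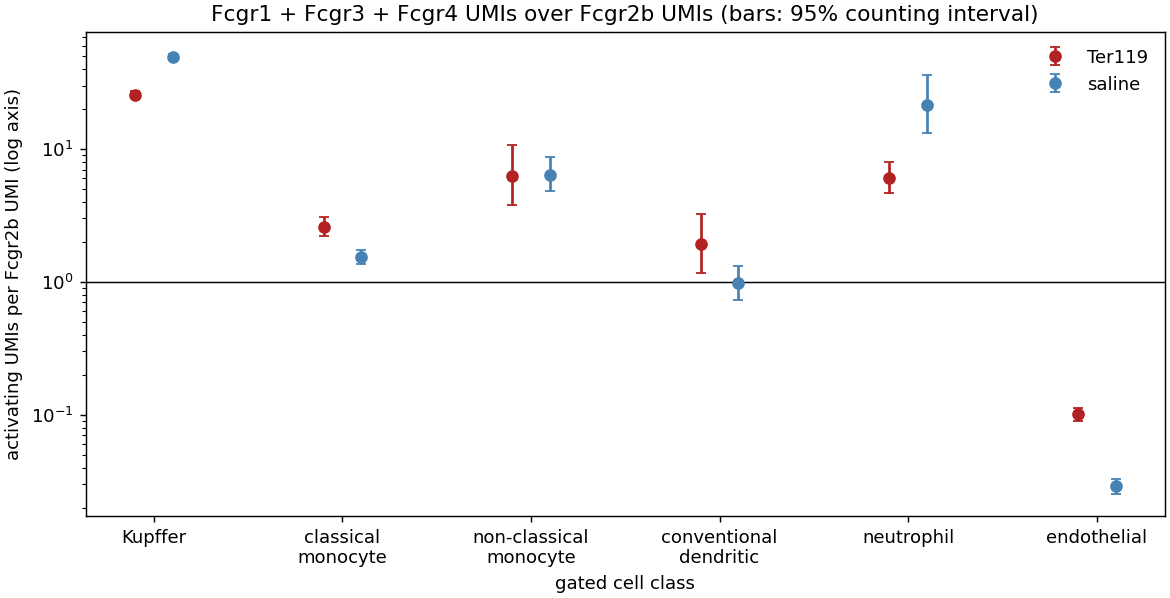
UMIs of Fcgr1, Fcgr3 and Fcgr4 together for each Fcgr2b UMI (log axis) in 6 gated classes, with Ter119 in red on the left and saline in blue on the right; bars are 95% counting intervals, and the line marks equal counts. Kupffer-gated cells stand highest, at 25.6 in Ter119 and 49.0 in saline, and endothelial-gated cells lowest, at 0.101 and 0.0291.

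The activating to inhibitory ratio, the UMIs of Fcgr1, Fcgr3 and Fcgr4 for each Fcgr2b UMI, was 25.6 (24.0 to 27.3) in Kupffer-gated cells of Ter119 and 49.0 (46.5 to 51.6) in those of saline. The ratio was lower in Ter119 than in saline under each of the 11 alternatives tried, and rested on 972 Fcgr2b UMIs in Ter119 and 1448 in saline. It stood at 41.9 in Ter119 and 61.9 in saline in the Kupffer-gated cells with no UMI of 6 endothelial genes, and in these cells the Fcgr2b ratio of Ter119 over saline was 1.08. With leiden clusters in place of the gate the same Fcgr2b ratio was 2.36, past 2-fold, and the activating to inhibitory ratio was 11.6 in Ter119 and 39.5 in saline.

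Classical monocyte-gated cells had an activating to inhibitory ratio of 2.60 in Ter119 (2.20 to 3.09) and 1.55 in saline (1.37 to 1.75). With leiden clusters the classical monocyte values were 5.08 and 2.05, in Ter119 and saline. Conventional dendritic-gated cells had 1.92 (1.16 to 3.25) and 0.979 (0.729 to 1.32), and non-classical monocyte-gated cells 6.21 (3.81 to 10.7) and 6.40 (4.81 to 8.67), in Ter119 and saline. The counting intervals of the 2 mice did not overlap for classical monocyte-gated cells and did for the other pair of classes. In thinned dendritic-gated cells the order turned, with 1.20 in Ter119 and 3.33 in saline. These values rested on few counts, with an Fcgr2b UMI left in 9 of 71 cells in Ter119 and 3 of 76 in saline. With leiden clusters the non-classical monocyte values were 5 in Ter119, on only 5 cells, and 11.1 in saline, on 155 cells. Neutrophil-gated cells had 6.02 in Ter119 (4.63 to 7.93) and 21.3 in saline (13.3 to 36.3), the saline value on 18 Fcgr2b UMIs. Endothelial-gated cells had 0.101 (0.0904 to 0.112) and 0.0291 (0.0254 to 0.0331), or 9.95 and 34.4 Fcgr2b UMIs for each activating UMI. With leiden clusters in place of the gate the endothelial values were 0.101 in Ter119 and 0.168 in saline, so their order turned. B-gated cells of saline, in which Fcgr2b is known as the main Fc gamma receptor, had 0.359 (0.224 to 0.559).

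In classical monocyte-gated cells 1 of the 6 genes differed by 2-fold between the mice, Fcgr2b, with a ratio of 0.471 (0.395 to 0.560). Of 5996 genes, 8.41% differed that far, 2.37% being higher and 6.04% lower in Ter119, and 4.67% had a lower ratio than Fcgr2b. Syk was at 0.590 (0.485 to 0.716), Fcgr1 at 0.713, Fcgr3 at 0.811, Fcgr4 at 0.826 and Fcer1g at 0.846, beside a median of 0.851 for all genes. The class numbered 505 cells with a median of 2041 UMIs in Ter119 and 145 cells with a median of 8350 UMIs in saline. Summed Kupffer markers stood at 3924 CPM in these cells in Ter119 and 2625 CPM in saline, with all 10 of 10 markers detected in both, and their part in the result was not tested.

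**Figure D4:**
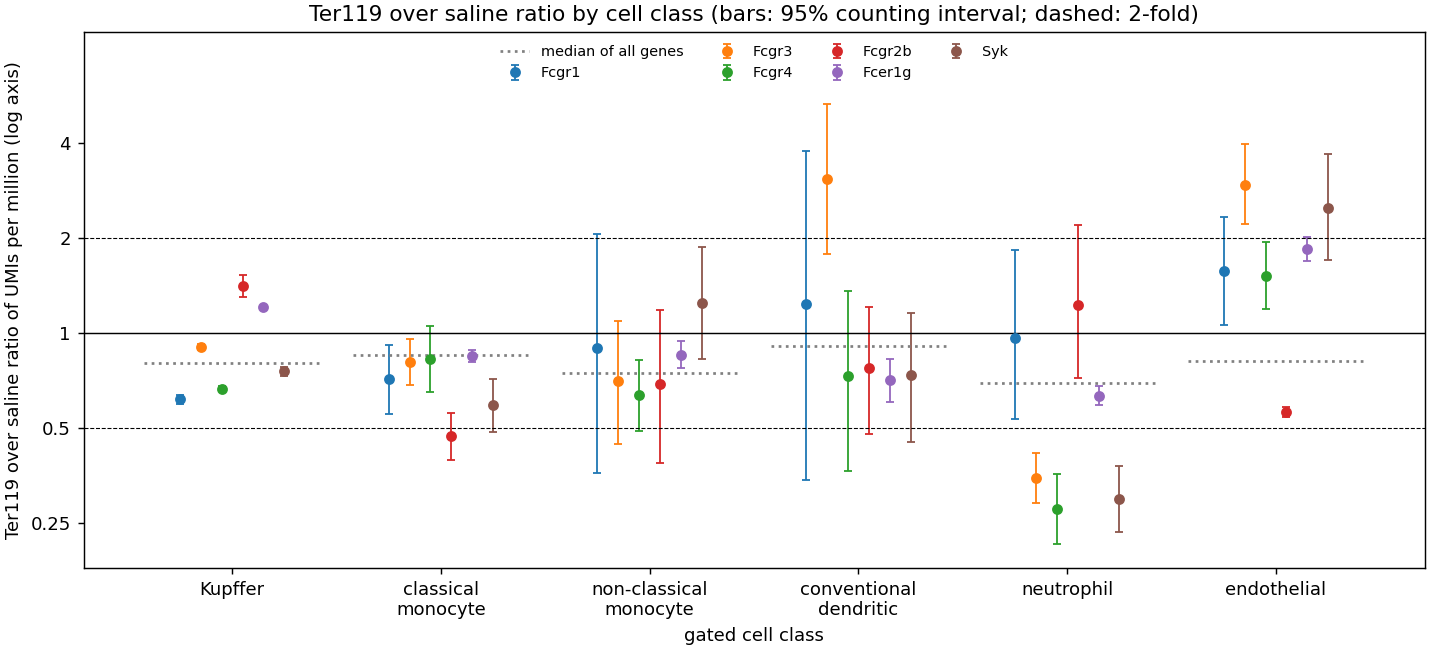
Ter119 over saline ratio of each gene (log axis) in 6 gated classes; bars are 95% counting intervals, dashed lines mark 2-fold and dotted lines the median of all genes of the class. Neutrophil-gated cells show Fcgr3, Fcgr4 and Syk at 0.347, 0.277 and 0.298, and Kupffer-gated cells show Fcer1g at 1.21 above Fcgr1 at 0.616.

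Neutrophil-gated cells showed 3 of the 6 genes past 2-fold, all lower in Ter119. Fcgr3 had a ratio of 0.347 (0.289 to 0.418), Fcgr4 of 0.277 (0.214 to 0.358) and Syk of 0.298 (0.234 to 0.379). In this class 47.2% of 5509 genes differed 2-fold, 34.2% lower in Ter119, so that 3 such genes among 6 do not stand out. The median of all genes was a ratio of 0.696, and 20.7% of genes lay below Fcgr3, 14.4% below Fcgr4 and 16.1% below Syk. Summed neutrophil markers took 305207 CPM in Ter119 and 134796 CPM in saline, which leaves less of the total for other genes in Ter119. The part of this in the ratios was not tested. Fcer1g was at 0.634, Fcgr1 at 0.965 and Fcgr2b at 1.23. The class was of a different kind in the 2 mice, since 86.9% of Ter119 cells and 2.24% of saline cells had a thinned UMI of Camp, Ngp or Ltf, granule genes of immature neutrophils. Among cells without such a UMI, 81 in Ter119 and 218 in saline, Fcgr3 stood at 228 CPM in Ter119 and 455 CPM in saline, Fcgr4 at 139.9 and 258 CPM, and Syk at 124 and 297 CPM. The same genes thus remained lower in Ter119 in that part of the class, by less than in the whole class. The cells left were still unlike in markers of mature neutrophils, with Cxcr2 at 357 CPM in Ter119 and 1630.3 CPM in saline and Retnlg at 2984 and 6578 CPM, whose part in the result was not tested. This split was made after the values had been seen.

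In endothelial-gated cells Fcgr2b was lower in Ter119, with a ratio of 0.562 (0.541 to 0.584), and the median of all genes was 0.818. The summed level of the 9 endothelial markers moved with it, at 10192 CPM in Ter119 and 16318 CPM in saline, with all 9 detected in both. Per 100 Kdr UMIs, Fcgr2b stood at 105 in Ter119 and 111 in saline. Of the 6 genes, Fcgr3 (ratio 2.96) and Syk (2.50) were past 2-fold, where 9.83% of 7150 genes were, 3.05% higher and 6.78% lower in Ter119. Fcgr3 stood at 87.8 CPM in Ter119 and 29.7 CPM in saline, and T-gated cells of Ter119, on 13 UMIs, had 94.9 CPM (50.5 to 162). Summed Kupffer markers stood at 5269.8 CPM in Ter119 and 3890.1 CPM in saline, with all 10 detected in both, and their part in these ratios was not tested.

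Conventional dendritic-gated cells had Fcgr3 at 118 CPM in Ter119 (30 UMIs in 71 cells) and 38.5 CPM in saline (29 UMIs in 76 cells), a ratio of 3.08 (1.78 to 5.31). Of 6156 genes, 22.8% differed 2-fold in this class, 7.57% higher and 15.3% lower in Ter119. Fcer1g was at 0.709 (0.603 to 0.830), and the intervals of Fcgr1, Fcgr4, Fcgr2b and Syk included 1. T-gated cells of Ter119 had Fcgr3 at 94.9 CPM (50.5 to 162), an interval that holds the dendritic level. Non-classical monocyte-gated cells had none of the 6 genes past 2-fold, where 28.4% of 6673 genes were, 5.16% higher and 23.3% lower in Ter119. Fcgr4 was at 0.638 (0.490 to 0.824) and Fcer1g at 0.855 (0.774 to 0.943) in them, beside a median of 0.748 for all genes.

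Within Ter119, Kupffer-gated cells with a thinned UMI of Gpnmb, a lysosomal membrane protein of activated macrophages, and those without differed mainly in Fcgr4. It stood at 394 CPM (381 to 407) in 2378 cells with Gpnmb and 346 CPM (338 to 354) in 5552 cells without. Fcgr1 was at 135 and 136 CPM, Fcgr3 at 344 and 343 CPM and Syk at 154 and 152 CPM, with and without Gpnmb. Fcer1g was at 2562 and 2417 CPM. Cells with a thinned UMI of Mki67, which marks cycling cells, had lower Fcgr4 than those without in both mice, at 299 against 362 CPM in Ter119 and 383 against 546 CPM in saline. Fcer1g was lower in them too, at 2218 against 2468 CPM in Ter119 and 1698 against 2042 CPM in saline. In saline Fcgr1, Fcgr3, Fcgr2b and Syk were lower as well, with overlapping intervals for Syk. In Ter119 Fcgr1 (136 and 136 CPM) and Syk (159 and 152 CPM) were not lower in cells with Mki67. Cells with Timd4, a receptor of long-resident Kupffer cells, numbered 192 in Ter119 and 3607 in saline, and had Fcgr4 at 406 and 547 CPM. The lower Ter119 level of Fcgr4 and Fcgr1 was thus seen both in Timd4 cells, where Fcgr1 was at 129 and 228 CPM, and in cells without Timd4, where it was at 136 and 214 CPM.

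Signalling genes around the receptors were compared in Kupffer-gated cells by lists. Of 18 genes for Src family kinases and proximal ITAM signalling, 13 had at least 20 CPM in a library, none was 2-fold higher and 1 was 2-fold lower in Ter119, and their median log2 ratio was -0.76, beside -0.32 over all genes. Of all 6395 genes 3.22% were 2-fold higher and 11.1% were 2-fold lower. Prkcd, a protein kinase C, stood at 101 CPM in Ter119 and 240.3 CPM in saline (ratio 0.422). The phosphoinositide 3-kinase subunits Pik3r1 and Pik3cd were at ratios of 0.541 and 0.561. Fgr, Btk and Vav3 were at 0.914, 0.984 and 1.79, above the median ratio of 0.801 over all genes. The last 3 were named after their values were seen. With TMM or median-of-ratios scaling none of the list was 2-fold lower and 1 was 2-fold higher.

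Of the genes for inhibitory phosphatases, adaptors and ITIM receptors, 11 passed the minimum, 2 were 2-fold lower, none was 2-fold higher, and the median was -0.32, equal to that of all genes, of which 11.1% were 2-fold lower. Siglece, an inhibitory sialic acid receptor, stood at 102 CPM in Ter119 and 387 CPM in saline (0.264). Dok3, an inhibitory adaptor, stood at 27.9 and 58.4 CPM (0.477). Inpp5d, the phosphatase recruited by the inhibitory receptor, stood at 135 and 194 CPM (0.695), and Pirb, a paired inhibitory receptor that was highest in neutrophil-gated cells, at 173 and 251 CPM (0.688). With either of the other scalings 1 gene of the list was 2-fold lower.

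The 17 genes of the actin machinery of the phagocytic cup had a median of -0.31, close to that of all genes. Of all 6395 genes, 3.22% were 2-fold higher and 11.1% were 2-fold lower in Ter119. Vasp, which extends actin filaments, was 2-fold lower, at 126 CPM in Ter119 and 317 CPM in saline (0.398), and Gsn, which severs filaments and was named after its value was seen, was 2-fold higher at 39.7 and 19.8 CPM (2.01). Coro1a, Pak1 and Was were at 0.600, 0.606 and 0.629, and with the other scalings none of the list was 2-fold lower. Of the 5 NADPH oxidase genes, which make the oxidative burst after uptake, the soluble subunits Ncf4 and Ncf1 were 2-fold lower, at 25.5 and 64.9 CPM (0.393) and at 94.2 and 239 CPM (0.395), in Ter119 and saline. Both were highest in neutrophil-gated cells in both libraries. The membrane subunits were at 0.599 for Cybb and 1.71 for Cyba, so the list did not move in 1 direction. With TMM 1 gene of the list was 2-fold higher and 1 lower, and with median-of-ratios 1 was higher and none lower.

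Of 8 other receptors and adaptors that signal through ITAMs, 5 passed the minimum, 3 were 2-fold higher and 1 was 2-fold lower, with a median of 1.07. Over all genes 3.22% were 2-fold higher and 11.1% lower. The list was chosen with earlier results of these data known, so its count set beside that share is no test. Trem2, a lipid receptor that pairs with Tyrobp, stood at 268 CPM in Ter119 and 42.7 CPM in saline (6.28, 6.01 to 6.56). Clec4n, the receptor Dectin-2, which pairs with the Fcer1g chain, stood at 1293 and 211 CPM (6.13, 6.01 to 6.25), and Clec7a, the receptor Dectin-1, at 1105 and 526 CPM (2.10). Cd300ld, another receptor known to pair with the Fcer1g chain, was lower, at 306 and 686 CPM (0.447), and was within 2-fold with the other scalings. Among genes for other immunoglobulin receptors 3 of 10 passed the minimum, with a median of -0.90. Of these, Pigr, which carries polymeric immunoglobulin, was at 15.1 and 74.1 CPM (0.203), with its highest level outside the Kupffer class in both libraries. Fcgrt, which recycles immunoglobulin G, was at 199.9 and 350.1 CPM (0.571), with its highest level in endothelial-gated cells in both libraries.

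**Figure D5:**
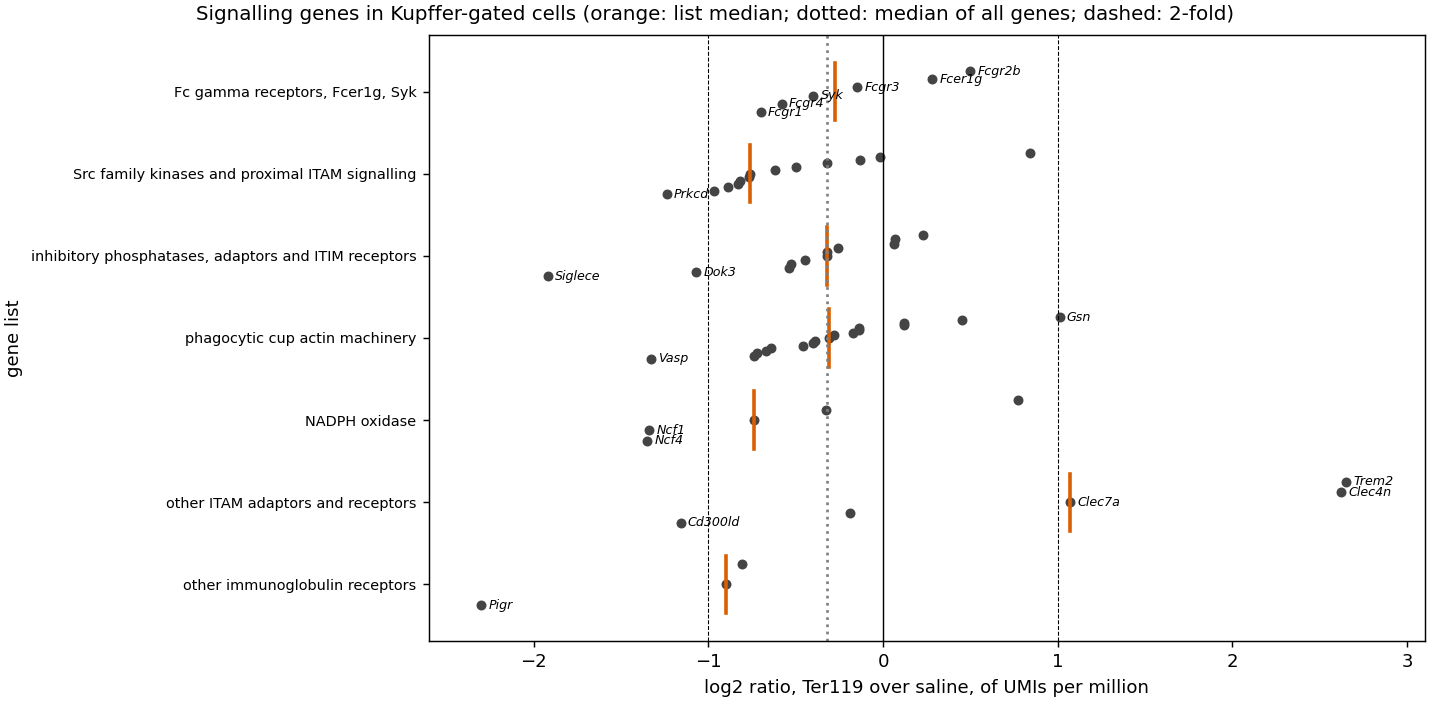
Log2 ratio of Ter119 over saline in Kupffer-gated cells for each gene of the signalling lists with at least 20 CPM in a library; orange bars are list medians, the dotted line is the median of all genes (-0.32) and dashed lines mark 2-fold. The 6 Fc receptor genes lie within 2-fold, and Trem2 and Clec4n lie at 2.65 and 2.62.

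The genes most alike in pattern were sought over 14 levels, each a class of at least 50 cells in a library, by Pearson correlation of log2 CPM among 5767 genes, as a description in which all levels of a library share its free RNA. Fcgr1 was most like Adap2 (0.958), Nr1h3, Ctsc, Pla2g4a and Ctsa, genes that were highest in Kupffer-gated cells. Fcgr4 was most like Cd300ld (0.949), Pilrb1, Lair1, Smpdl3a and Slc11a1, and Fcgr3 most like Tnfaip2 (0.936), Ccl6, Clec7a, Pilra and Abcd2. Fcgr2b was most like genes that were highest in endothelial-gated cells, Dnajc10 (0.932), Ccdc85b, Arhgef7, Itga1 and Cd300lg. Fcer1g was most like Lst1 (0.958), Igsf6, Tyrobp and Fgr. Syk had the weakest likeness, to March1 (0.877), Fam111a, Akt2, Ptpn6 and Grb2. Among the members themselves, Fcer1g followed Fcgr3 most closely (0.84) and then Fcgr4 (0.78) and Fcgr1 (0.69), and Fcgr2b ran against Fcgr3 (-0.60).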

How the data were processed

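Single-cell RNA was measured in 2 libraries, 1 mouse each. The authors deposited raw UMI counts per gene and barcode. Cell Ranger 6.0.2 wrote them, per the file headers. The tools named in the submitters' processing notes are Seurat 3.2.3, Scanpy 1.7.0, DESeq2 1.26.0 and another Cell Ranger version, 4.0.0, with GRCm38.p6 as the build. The sources used here do not say how hashtag reads assigned cells to mice.

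Barcodes with at least 1000 UMIs, 500 genes and at most 15% mitochondrial UMIs were kept. A Kupffer-gated cell had at least 5 of 10 Kupffer markers and at least 100 Kupffer marker UMIs per 10000. A cell of another class passed only its own gate (4 markers for classical monocytes, 5 for endothelial cells and neutrophils) and lay below that limit. The limits on marker number and Kupffer UMIs were set after looking at marker counts. 1409 Ter119 and 246 saline cells lay between 80 and 125 Kupffer UMIs per 10000. Cells with the profiles of 2 classes, 1278 in Ter119 and 1350 in saline, were left out as possible doublets, and no doublet caller was run.

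UMIs were summed per class and library. Levels have exact Poisson intervals, ratios exact conditional binomial intervals and shares exact Clopper-Pearson intervals, all at 95% and for counting error only. The activating to inhibitory ratio carries the Clopper-Pearson interval of its share. Genes with at least 20 CPM in a library were called by size, at 2-fold, classes with at least 50 cells in both libraries entered comparisons, and correlations used log2 of CPM plus 10. The comparison was tested on simulated counts. The 6 members, the gene lists and the marker lists were chosen with earlier results of these data known. Beyond the members, up to 4 genes of each list were named, those with the largest absolute log2 ratio and at least 50 CPM in a library, and the 5 genes most like each member. Some genes this rule names are not reported here. Lilrb4a was not used, because its symbol marks 2 rows. Software was scipy 1.17.1, python 3.11.15, pandas 2.3.3, numpy 2.4.6, leidenalg 0.10.2, scanpy 1.11.5, matplotlib 3.10.9, edgeR 4.0.16 (TMM factors only) and R 4.3.3, with gene positions from GENCODE M21. No test across mice was possible with 1 per group.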

Additional observations from a re-analysis of the deposited data

Results flagged for a closer look

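Several genes were higher in Ter119 in one class and lower in another, with counting intervals on opposite sides of 1. The difference between classes was not tested, since each group is 1 mouse. Fcer1g had a ratio of 1.21 in Kupffer-gated cells, and ratios of 0.846 in classical monocyte-gated, 0.855 in non-classical monocyte-gated, 0.709 in conventional dendritic-gated and 0.634 in neutrophil-gated cells. Fcgr2b had a ratio of 1.41 in Kupffer-gated cells, 0.471 in classical monocyte-gated cells and 0.562 in endothelial-gated cells. The median ratio of all genes was 0.801 in Kupffer-gated, 0.851 in classical monocyte-gated and 0.748 in non-classical monocyte-gated cells. It was 0.912 in conventional dendritic-gated, 0.696 in neutrophil-gated and 0.818 in endothelial-gated cells. Fcer1g thus lay close to the median in classical monocyte-gated cells and above it in non-classical monocyte-gated cells. It lay below the median in dendritic-gated and neutrophil-gated cells.

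Fcgr1, Fcgr3, Fcgr4 and Syk were lower in Ter119 in Kupffer-gated cells, and in endothelial-gated cells their ratios were 1.57, 2.96, 1.52 and 2.50. The Kupffer ratio of Fcgr3 turned to 1.14 with TMM and 1.16 with median-of-ratios, so its direction depended on the scaling. The Kupffer gene Cd5l stood at 1021 CPM in the endothelial-gated cells of Ter119 and 652 CPM in those of saline. Fcgr3 also had a ratio of 3.08 in conventional dendritic-gated cells, in which Cd5l stood at 813 CPM in Ter119 and 403 CPM in saline. The part of free Kupffer RNA in these values was not tested.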

How the results depend on the processing

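No paired analysis was possible because each group is 1 mouse. Treatment, animal and library cannot be told apart in these data. Depth limits the smaller classes. Most Kupffer clusters came almost wholly from 1 library, and the alternatives with hemoglobin left out, with 200 Kupffer UMIs per 10000 and with cells free of 6 endothelial genes were chosen after seeing the data.

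Ratios of Ter119 over saline in Kupffer-gated cells are given here where they left the counting interval of the value reported. With TMM they were 0.780 for Fcgr1, 1.14 for Fcgr3, 0.845 for Fcgr4, 1.79 for Fcgr2b, 1.53 for Fcer1g and 0.958 for Syk. With median-of-ratios they were 0.791, 1.16, 0.857, 1.81, 1.56 and 0.971, with hemoglobin genes left out of totals 0.673, 0.987, 0.729, 1.54, 1.32 and 0.826, with 200 Kupffer UMIs per 10000 0.682, 0.954, 0.722, 1.28, 1.29 and 0.810, with at most 5% mitochondrial UMIs 0.525, 0.773, 0.590, 1.71, 1.05 and 0.711, and with leiden clusters 0.575, 0.857, 0.623, 2.36, 1.14 and 0.712, in the same order of genes. With the mean of per-cell CPM, Fcgr1 was at 0.650, Fcgr3 at 0.937, Fcgr2b at 1.14 and Fcer1g at 1.24. Cells thinned to 1000 UMIs gave 0.969 for Fcgr3, 1.06 for Fcgr2b, 1.24 for Fcer1g and 0.802 for Syk, and a limit of 500 UMIs with no limit on genes or mitochondrial share gave 0.929, 1.27 and 1.24 for Fcgr3, Fcgr2b and Fcer1g. A gate of 1 marker fewer gave 0.930 for Fcgr3, 1.01 for Fcgr2b and 1.25 for Fcer1g, and cells free of the 6 endothelial genes gave 1.08 for Fcgr2b. A gate of 1 marker more, a limit of 2000 UMIs and leaving out shared barcodes moved no ratio out of its interval.

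The activating to inhibitory ratio of Kupffer-gated cells in Ter119 and saline was 31.2 and 41.9 with 1 marker fewer, 21.6 and 44.8 with 1 marker more, 32.5 and 52.7 with 200 Kupffer UMIs per 10000, 28.2 and 52.3 with at least 2000 UMIs, 20.9 and 35.2 with at least 500 UMIs, 22.8 and 60.9 with at most 5% mitochondrial UMIs, 11.6 and 39.5 with leiden clusters, 21.1 and 31.6 with the mean of per-cell CPM, 21.1 and 29.3 in thinned cells and 41.9 and 61.9 in cells free of the 6 endothelial genes. In endothelial-gated cells of Ter119 it was 0.156 with at least 2000 UMIs and 0.120 with at most 5% mitochondrial UMIs. In those of saline it was 0.0347, 0.0237, 0.168, 0.0348 and 0.0339 with at least 500 UMIs, at most 5% mitochondrial UMIs, leiden clusters, per-cell means and thinning. The leiden value for Ter119 was 0.101, so the order of the mice turned. In the other 4 classes 66 of 72 values stayed within their intervals. The 6 others were conventional dendritic-gated cells of saline, at 0.655 with 1 marker fewer, 1.93 with leiden clusters and 3.33 in thinned cells (1.20 in Ter119, so the order turned), and, with leiden clusters, classical monocytes at 5.08 in Ter119 and 2.05 in saline and non-classical monocytes at 11.1 in saline (5 in Ter119). The thinned dendritic value of saline rested on 3 cells with an Fcgr2b UMI, and the leiden class of non-classical monocytes held 5 cells in Ter119. The causes of these shifts were not tested.

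Counts of list genes past 2-fold changed in these cases. With TMM, 1 Src family and proximal ITAM gene was higher and 0 lower, 1 inhibitory gene was lower, 0 actin genes were lower, 1 oxidase gene was higher and 1 lower, and 0 other ITAM genes were lower. Median-of-ratios gave the same counts except 0 lower oxidase genes and 4 higher other ITAM genes, against 3. Leiden clusters gave 1 of the 6 members higher (Fcgr2b), 2 proximal ITAM genes lower and 0 actin genes higher. Without a minimum CPM, 1 proximal ITAM gene was higher and 2 lower, 5 other ITAM genes were higher, and 1 other immunoglobulin receptor was higher and 3 lower.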

Other observations

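Cells that fell in no class held Fcgr2b at levels between those of the Kupffer and endothelial classes, as did the monocyte and dendritic classes. The intervals of neutrophil-gated and Kupffer-gated cells overlapped in both libraries. The 1130 Ter119 cells and 1214 saline cells that had the Kupffer UMI share but also passed another gate or lacked markers had Fcgr2b at 301 and 209.7 CPM, beside Fcgr4 at 306 and 494 CPM. The 2182 Ter119 and 249 saline cells below the Kupffer limit had Fcgr2b at 154 and 303 CPM and Fcer1g at 1726 and 1822 CPM.

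Kupffer-gated cells of saline without a thinned UMI of Clec4f, 230 cells, had Fcgr2b at 81.8 CPM (66.8 to 99.3), against 22.1 CPM (20.9 to 23.3) in the 8672 with one. In Ter119 the levels were 36.4 CPM in 3885 cells without and 29.2 CPM in 4045 cells with one. Clec4f is a lectin of resident Kupffer cells. The saline cells without it had a median of 4056 UMIs, against 6307 in those with it. Endothelial genes were not examined in this split, and the part of endothelial RNA in its Fcgr2b counts was not tested. The activating to inhibitory ratio was 22.7 without and 29.2 with Clec4f in Ter119, and 12.4 without and 51.8 with it in saline.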
